A study of Arabidopsis thaliana with 4 samples.

Results

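MATH-domain genes were followed in unopened floral buds of Arabidopsis thaliana, in the cdm1 mutant and in wild type plants. The group was defined by locus, as 60 protein-coding genes of the MATH-domain (TRAF-like) family, and a gene counted as measured where the array annotation gives a probe set to that gene alone. This left 18 measured genes, each with 1 probe set, out of 13286 loci that single-gene probe sets name on the array. The other 42 genes were not analysed here, among them RTM3 and the 4 closest family neighbours of AT2G42480. The family was chosen because AT2G42480 had been seen to read higher in cdm1, so the difference of that gene is described below without a test.

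The MATH domain (meprin and TRAF homology domain) is a fold that binds other proteins, shared by animal TRAF signalling adaptors and by many plant proteins. In Arabidopsis most genes of this kind encode proteins with MATH domains alone, and many lie in tandem runs. The function of few is known. RTM3 restricts the long-distance movement of potyviruses, and AT5G43560 (MUSE14) and its relative MUSE13 act as adaptors in the turnover of immune receptors. The related MATH-BTB proteins (the BPM genes) bring substrates to cullin 3 ubiquitin ligases, and the SINAT proteins are RING ubiquitin ligases with a TRAF-like domain.

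The series compares cdm1 with wild type, both of accession Col-0 and both sampled on day 24 after germination, with 2 biological replicate arrays for each genotype and 500 ng of total RNA labelled per array. CDM1 (CALLOSE DEFECTIVE MICROSPORE1) encodes a CCCH zinc finger protein, and the comparison asks which bud transcripts differ when it is mutated. The labels do not give the mutant allele or whether the replicates came from separate sowings, and they mention drought for some plants without tying it to any of these arrays. CDM1 itself was not measured by a named probe set, so it gives no check of the genotype labels. Each array gives 1 deposited value per probe set on a log2 scale, on which a difference of 1 is a 2-fold change. Arrays of one genotype correlated at 0.996 (cdm1) and 0.998 (wild type) across probe sets, and arrays of different genotypes at 0.990 to 0.994. Of 17 floral organ regulators listed as tissue markers, 4 were measured (INO, SPT, PTL and RBE), and none of them passed the test. Whether a probe set reads above background was not tested, and levels of different probe sets are not ranked against each other, since probe sets differ in brightness for the same RNA amount.

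The measured MATH-domain genes fell into 2 sets by brightness. On all 4 arrays, 9 genes read below 5.32, the value under which the dimmest 33.3% of probe sets lie, with values from 3.15 to 4.38. The other 9 read above that value on all 4 arrays, from 5.66 to 11.8. No gene crossed the value between arrays. AT3G28220 had readings of 11.8 and 11.6 in cdm1 and of 11.5 and 11.7 in wild type. AT1G65370 had 10.6 and 10.8 in cdm1 and 10.9 and 10.8 in wild type. Both therefore gave strong signal in buds of each genotype. The replicate gap of the 18 genes had a median of 0.16 in cdm1 (0.13 over all probe sets) and of 0.096 in wild type (0.10 over all probe sets), and its largest value was 0.38 in cdm1 and 0.36 in wild type.

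**Figure D1:**
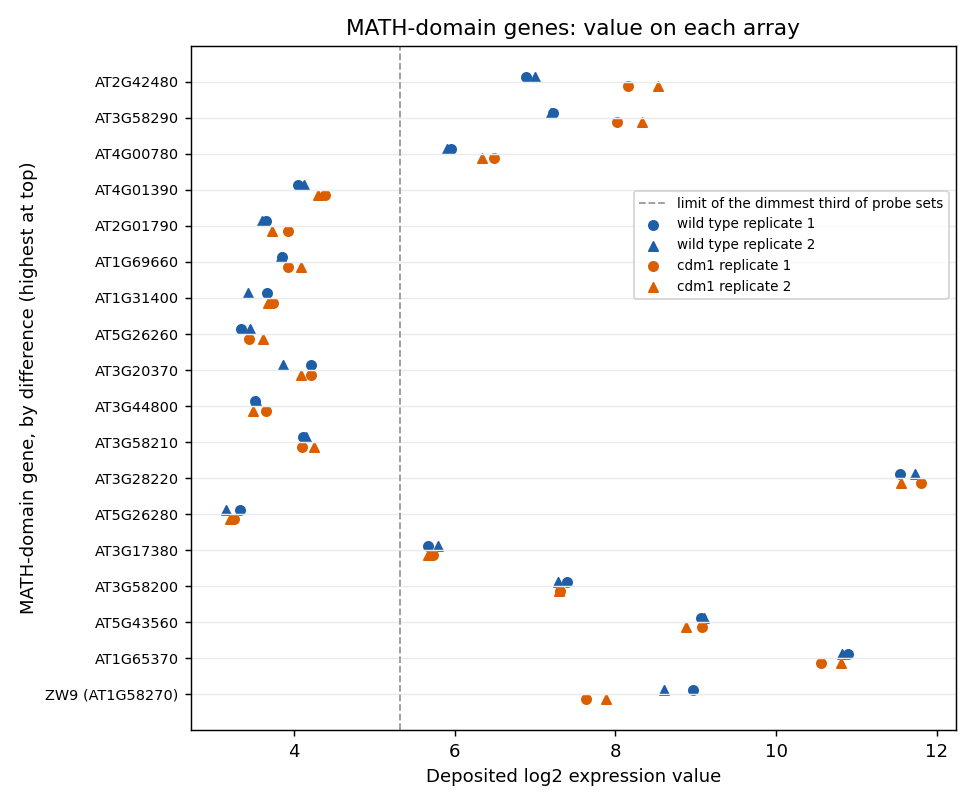
Deposited log2 expression value (x axis) of the 18 measured MATH-domain genes on each of the 4 arrays, with wild type in blue and cdm1 in orange, replicate 1 as circles and replicate 2 as triangles. The dashed line is 5.32, below which the dimmest 33.3% of probe sets lie. The genotypes stand clearly apart for AT2G42480, AT3G58290 and ZW9, and 9 genes lie left of the line on every array.

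AT2G42480, the gene that led to the family being examined, read 8.16 and 8.53 on the 2 cdm1 arrays and 6.89 and 7.00 on the 2 wild type arrays. Every cdm1 reading lay above every wild type reading, by 1.15 at the closest and 1.65 at the widest. The group means were 8.34 ± 0.27 in cdm1 and 6.94 ± 0.080 in wild type (SD, n = 2 arrays each), a log2 difference of 1.40. With any 1 array left out, the difference stayed between 1.21 and 1.59. Since this difference chose the gene, no p-value is attached to it.

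Of the 17 other measured genes, 1 rose in cdm1 (AT3G58290), 1 fell (ZW9) and 15 did not pass limma's test (adjusted p under 0.05 over all 22746 probe sets). Across the whole array 1.33% of probe sets passed, 0.602% as higher and 0.73% as lower. The 2 calls among 17 genes make 11.8%, but the family was picked with results of these arrays known, so this share is not independent evidence that the family is affected. Both called genes belong to the brighter set, in which 2 of 8 genes other than AT2G42480 passed, against 1.64% of all probe sets above the brightness limit. In whole buds, fewer cells of a type and less RNA per cell cannot be told apart.

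AT3G58290 read 8.02 and 8.33 in cdm1 and 7.23 and 7.20 in wild type. The wild type arrays nearly coincided, and both cdm1 arrays lay above them. The gene rose 1.95-fold, with a log2 difference of 0.96 (SE 0.13, 95% interval 0.65 to 1.27, limma adjusted p = 0.0321). Its mean was 7.21 ± 0.022 in wild type and 8.17 ± 0.22 in cdm1 (SD, n = 2 arrays each). The call rests on having both wild type arrays: the difference was 0.98 with wild type replicate 1 left out (limma adjusted p = 0.295) and 0.94 with replicate 2 left out (limma adjusted p = 0.263), and in both cases limma called no probe set of the whole array (1619 and 2133 had an unadjusted p under 0.05). Left-out cdm1 arrays kept the call, at differences of 1.11 and 0.81.

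ZW9 (AT1G58270), whose function is not given in the sources used here, moved the other way. It read 7.64 and 7.89 in cdm1 and 8.96 and 8.61 in wild type. Both cdm1 readings were below both wild type readings, by 0.72 at the closest, while the wild type arrays themselves differed by 0.36. The gene fell 2.03-fold, with a log2 difference of -1.02 (SE 0.15, 95% interval -1.40 to -0.65, limma adjusted p = 0.0435). Its mean was 8.79 ± 0.25 in wild type and 7.76 ± 0.17 in cdm1 (SD, n = 2 arrays each). This call was lost with cdm1 replicate 1 left out (-0.90, limma adjusted p = 0.0789), and likewise for wild type replicate 1 (-0.84, limma adjusted p = 0.316) and wild type replicate 2 (-1.20, limma adjusted p = 0.161).

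With the replicate number as a block, which leaves 1 residual degree of freedom, neither call held (limma adjusted p = 0.190 for AT3G58290 and 0.250 for ZW9). Both calls were also lost with ordinary linear-model p-values, which borrow no variance from other probe sets (adjusted p = 0.469 for AT3G58290 and 0.498 for ZW9). The 2 cdm1 arrays did not order these genes in one way relative to wild type. For AT2G42480 and AT3G58290 cdm1 replicate 2 lay farther from wild type than replicate 1, and for ZW9 it lay nearer. Over the whole family, 7 of 18 genes (38.9%) read higher in cdm1 replicate 2 than in replicate 1, next to 38.7% of all probe sets.

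**Figure D2:**
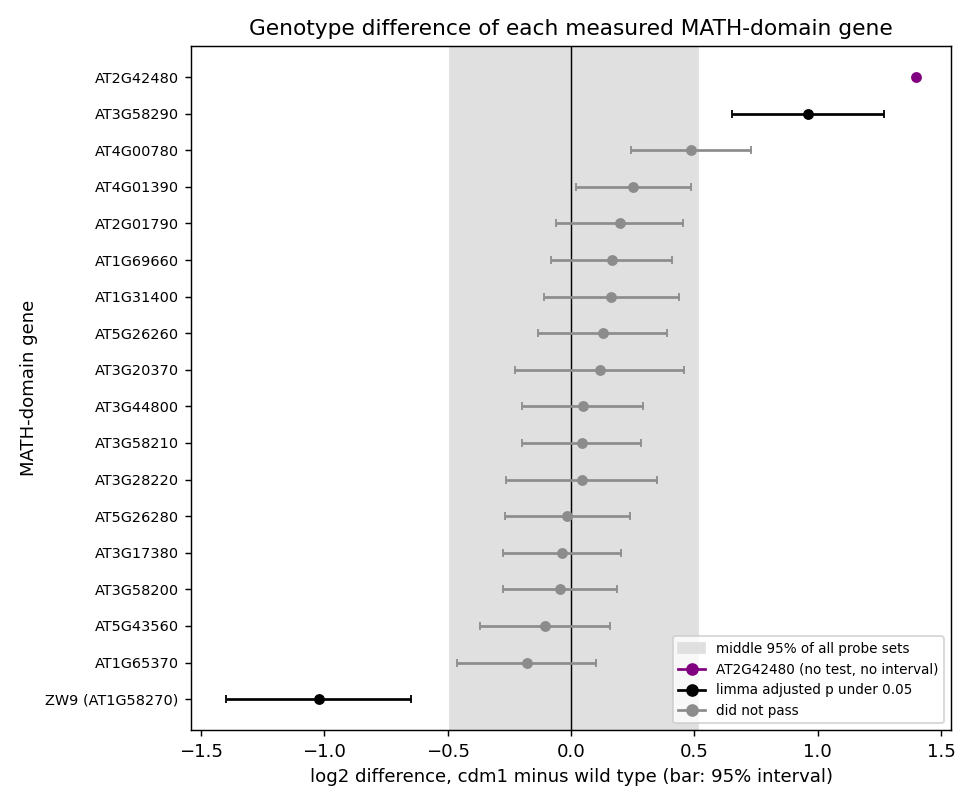
log2 difference, cdm1 minus wild type, of each measured MATH-domain gene (x axis), with limma's 95% interval as a bar. AT2G42480 is drawn without an interval because its difference chose the family. The grey band holds the middle 95% of all probe sets, from -0.49 to 0.51, and AT2G42480, AT3G58290 and ZW9 are the 3 genes whose difference lies outside it.

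AT4G00780 came next in size. It read 6.49 and 6.34 in cdm1 and 5.95 and 5.90 in wild type, so the groups did not overlap. Its log2 difference of 0.48 (SE 0.10, 95% interval 0.24 to 0.73) did not pass (limma adjusted p = 0.102), and no alternative brought it past the threshold (limma adjusted p of 0.0514 to 0.535). AT4G01390, on the same chromosome but outside any run, read 4.38 and 4.29 in cdm1 and 4.04 and 4.12 in wild type. Its difference was 0.25 (SE 0.095, limma adjusted p = 0.293), measured in the dim range.

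The 13 remaining genes each had an unadjusted p above 0.05, with log2 differences from -0.18 to 0.20 and limma adjusted p-values from 0.435 to 0.968. Their 95% intervals reached from -0.46 to 0.46 at the outermost, so a 2-fold change in the deposited values lies outside each interval. For those in the dim set, signal over background was not tested and the processing compresses fold changes. Their intervals therefore do not bound the change in RNA. AT5G43560 (MUSE14), the immune receptor adaptor gene, read 9.08 and 8.87 in cdm1 and 9.07 and 9.10 in wild type, a difference of -0.11 (95% interval -0.37 to 0.16). AT1G65370 had a difference of -0.18 (95% interval -0.46 to 0.10). Its groups did not overlap, but by only 0.022 at the closest.

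AT3G28220, with strong signal in both genotypes, had a difference of 0.043 (95% interval -0.26 to 0.35), and its cdm1 and wild type readings interleaved. AT3G17380 read 5.73 and 5.66 in cdm1 and 5.67 and 5.80 in wild type, a difference of -0.036 (SE 0.098). Neither gene separated the genotypes.

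Among dim genes, AT2G01790 read 3.92 and 3.73 in cdm1 and 3.65 and 3.60 in wild type, a difference of 0.20 (SE 0.11). AT1G69660 read 3.93 and 4.09 in cdm1 and 3.85 and 3.84 in wild type. AT1G31400 read 3.74 and 3.68 in cdm1 and 3.66 and 3.43 in wild type. In these 3 genes the cdm1 readings lay above the wild type readings by 0.018 to 0.081 at the closest. AT3G20370 (4.21 and 4.08 in cdm1, 4.21 and 3.86 in wild type), AT3G44800 (3.65 and 3.49 in cdm1, 3.51 and 3.53 in wild type) and AT5G26260 (3.44 and 3.61 in cdm1, 3.34 and 3.45 in wild type) overlapped between genotypes.

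As a group the 18 genes had a median log2 difference of 0.082, with quartiles of -0.031 and 0.19, beside a median of 0.0036 and quartiles of -0.11 and 0.12 over all probe sets. The difference was positive for 12 genes (66.7%, against 51.0% of all probe sets) and negative for 6. The positive values came mainly from the dim set, where 8 of 9 genes were positive (52.8% of all probe sets in that range) with a median of 0.13 (0.0089 over that range) and none passed the test. In the brighter set 4 genes were positive and 5 negative, with a median of -0.036 (0.00013 over all brighter probe sets). Genotype readings did not overlap for 9 of the 18 genes (50.0%), 7 higher and 2 lower in cdm1, which is near the 47.3% of all probe sets without overlap.

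**Figure D3:**
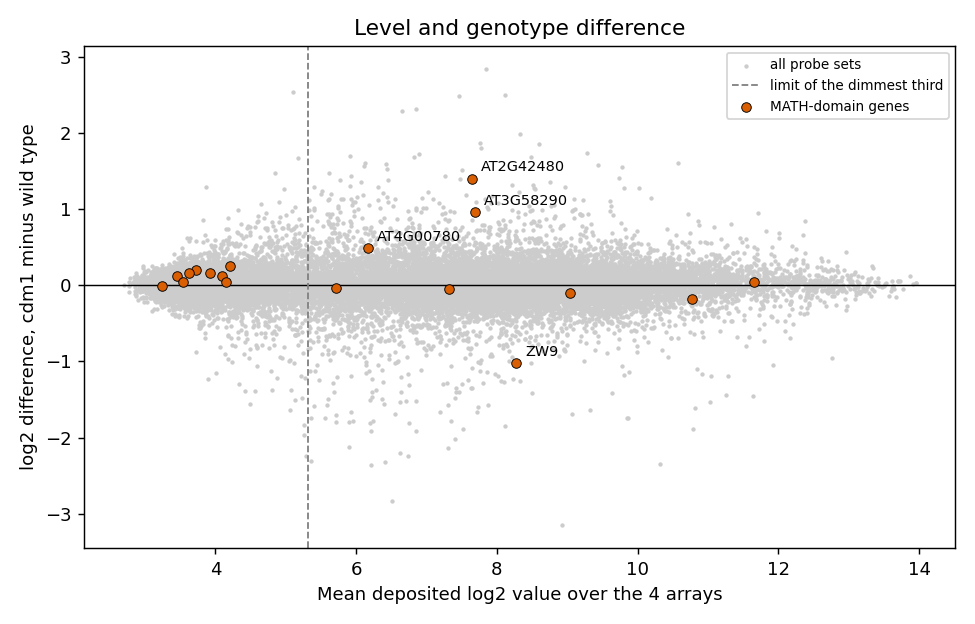
Mean deposited log2 value over the 4 arrays (x axis) and log2 difference, cdm1 minus wild type (y axis), for all 22746 probe sets (grey) and the 18 MATH-domain genes (orange). The dashed line is the brightness limit of 5.32. The 9 genes left of it lie between -0.015 and 0.25, and AT2G42480, AT3G58290, AT4G00780 and ZW9 are labelled on the right.

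In annotated gene order, with at most 3 gene records between consecutive family genes, 43 of the 60 loci form 12 runs of 2 or more genes. The single-gene probe sets of the annotation covered these runs thinly. Whether the 8730 probe sets that it does not list read more of these genes is not known. In 5 runs no gene was measured, in 6 runs 1 gene was, and only the run from AT3G58200 to AT3G58290, of 8 family genes, held more, with 3. The longest run, 10 genes from AT3G58340 to AT3G58440 that include RTM3, had no measured gene, and in the run from AT5G26280 to AT5G26320 only AT5G26280 was measured (3.25 and 3.20 in cdm1, 3.33 and 3.15 in wild type, a difference of -0.015). AT5G26260, 4 records away and so outside that run, had a difference of 0.13 (SE 0.11), and neither passed. The run of AT2G42480 holds 5 genes (AT2G42460, AT2G42465, AT2G42470, AT2G42475 and AT2G42480), and AT2G42480 alone was measured, so whether its tandem neighbours move with it was not tested.

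Within the AT3G58200 run the 3 measured genes did not share a change in the deposited values. AT3G58200 read 7.31 and 7.30 in cdm1 and 7.40 and 7.29 in wild type, a difference of -0.043 (95% interval -0.27 to 0.19). AT3G58210, directly next to it, read 4.10 and 4.25 in cdm1 and 4.11 and 4.15 in wild type, a difference of 0.043 (95% interval -0.20 to 0.28). Neither interval reaches that of AT3G58290, whose lower end is 0.65. AT3G58210 belongs to the dim set, so its interval does not bound the change in RNA. Only AT3G58200 can bear the comparison with AT3G58290. Between AT3G58210 and AT3G58290 lie 7 other gene records. AT3G58200 and AT3G58210 form the only pair of measured family genes with no more than 3 records between them. Their differences, both near 0, were of opposite sign and 0.086 apart. Their signs matched with cdm1 replicate 2 left out (-0.038 and -0.029) and with wild type replicate 1 left out (0.014 and 0.025), so no direction is drawn from them. The 11110 such pairs of measured genes over the genome had a median gap of 0.17 and the same sign in 51.1% of cases.

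Measured genes within 10 gene records of the genes that stood out were then compared, a window chosen after the values were seen. Around AT2G42480, 8 genes outside the list were measured, and none passed the test. Their log2 differences ran from -0.27 (the cold-regulated gene COR15B) to 0.21 (COR15A), with a median of 0.016, and their smallest limma adjusted p was 0.341. The nearest measured gene on either side was AT2G42450, at 0.058, and AT2G42490, at -0.12. The higher reading of AT2G42480 was thus not shared, in the deposited values, by the measured genes around it. LBD16 (3.55 to 4.10) and AT2G42560 (4.16 to 4.38) read in the dim range, where the values do not bound the change in RNA. Near ZW9 a single gene was measured, AT1G58230, at -0.046 (limma adjusted p = 0.900).

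Beside AT3G58290, a neighbour outside the list did pass the test. AT3G58280, the gene record directly before it, which is not among the 60 loci and was named after its values were seen, read 5.53 and 5.67 in cdm1 and 6.80 and 7.13 in wild type. Every cdm1 reading lay more than 1 below every wild type reading. AT3G58280 fell 2.58-fold, with a log2 difference of -1.37 (SE 0.14, 95% interval -1.70 to -1.03, limma adjusted p = 0.0142). The call was lost when a wild type array was omitted, at differences of -1.535 (without replicate 1) and -1.203 (without replicate 2). It was also lost with the replicate block (limma adjusted p = 0.111) and with ordinary linear-model p-values (adjusted p = 0.447). In the reported fit these direct neighbours changed in opposite directions. Whether AT3G58280 itself belongs to the family was not checked. Of the 11110 genome-wide pairs, 12 had both genes called, 10 of them in the same direction and 2 in opposite directions, of which AT3G58280 and AT3G58290 are one. On the other side, AT3G58300 read 0.29 higher in cdm1 (SE 0.094, limma adjusted p = 0.239) and AT3G58330 0.31 higher (SE 0.12, limma adjusted p = 0.308) on the log2 scale, both dim and neither past the test. AT3G58230 was at -0.11 (SE 0.14).

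**Figure D4:**
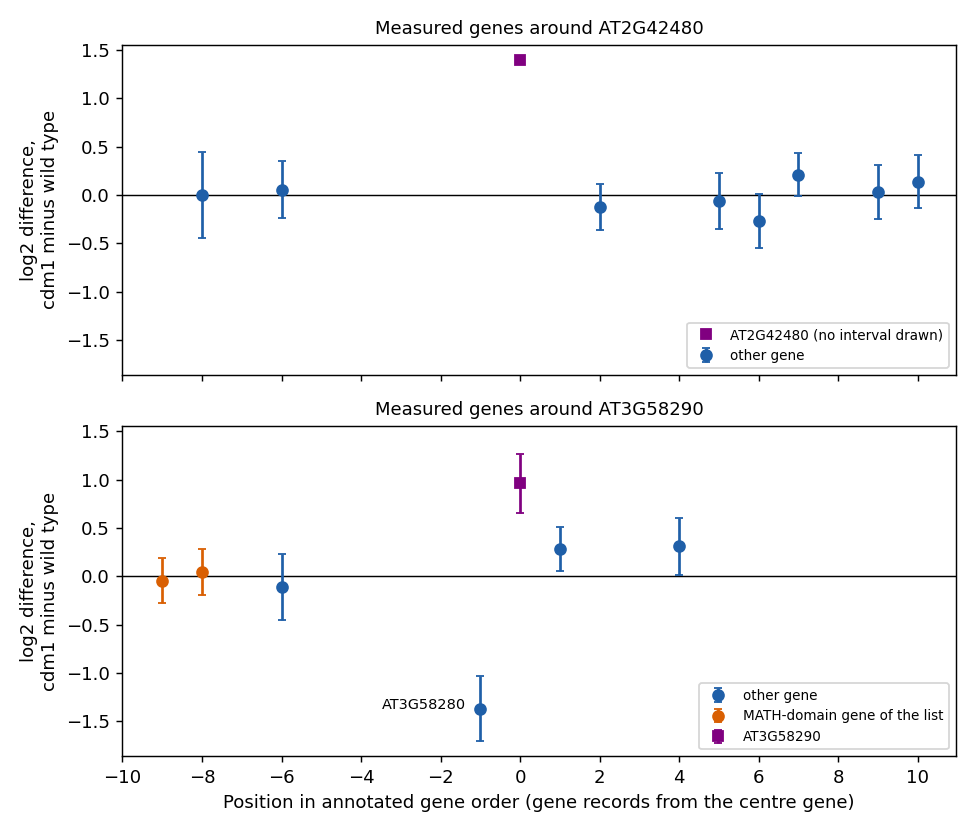
log2 difference, cdm1 minus wild type (y axis), of measured genes within 10 gene records of AT2G42480 (top) and of AT3G58290 (bottom), by position in annotated gene order (x axis), with limma's 95% interval as a bar where drawn. AT2G42480 stands above 8 neighbours that lie between -0.27 and 0.21, and AT3G58290 at 0.96 stands directly beside AT3G58280 at -1.37.

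Other MATH and TRAF-like genes of the ubiquitin system, listed together with cullin 3 ligase genes, gave no call. Of 17 listed, 6 were measured, all 6 did not pass over all probe sets, and their median log2 difference was -0.20, beside 0.0036 over all probe sets. SINAT4 had the smallest p, reading 8.64 and 8.80 in cdm1 and 9.13 and 9.02 in wild type, a difference of -0.35 (SE 0.10, limma adjusted p = 0.203). BPM3, a substrate adaptor of cullin 3 ligases, was at -0.26 (SE 0.11), and MUSE13, the partner of MUSE14, at -0.25 (SE 0.11, limma adjusted p = 0.361). SINAT5 was at -0.15, SINAT3 at -0.098 and SINAT1 at 0.14. RTM1 and RTM2, which act with RTM3, were not measured.

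Markers of cell types that buds contain were read on the same arrays. The marker lists were chosen with earlier results of these data known, so their values are not independent evidence on cell content. The 4 measured tapetum markers of 8 listed (AMS, A9, ATA27 and SHT) summed, on the linear scale, to 10564 and 11811 in cdm1 and to 8702 and 8388 in wild type. SHT passed the test as higher (log2 difference 1.73, limma adjusted p = 0.0367). The other 3 did not pass, at log2 differences of 0.94 (ATA27), 0.18 (AMS) and 0.12 (A9). The 4 measured meiosis markers of 7 listed (SDS, SPO11-1, PTD and RCK) summed to 190 and 191 in cdm1 and to 266 and 224 in wild type, with none called. The 4 measured late pollen markers of 9 listed summed to 486 and 515 in cdm1 and to 528 and 464 in wild type, with none called. They did not move together, with log2 differences of -0.49 (PLIM2A), -0.16 (PLIM2B), 0.050 (TUA1) and 0.38 (ACT12). LHCB4.2, the 1 measured leaf photosynthesis gene of 4 listed, read 6390 and 6964 in cdm1 and 6160 and 6417 in wild type. The part of these cell types in the differences of AT2G42480, AT3G58290 and ZW9 was not tested.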

How the data were processed

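Total RNA of unopened floral buds was hybridised to Affymetrix arrays, per the labels' protocols. The deposited expression values are on a log2 scale. Per the submitters' processing notes the authors used RMA with the R package affy (no version stated). RMA equalises array distributions and compresses fold changes of dim probe sets. Scanner files and detection calls were not used here, and precision is limited by there being 4 arrays.

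Gene names came from the platform annotation at GEO (13513 with 1 gene, 503 with several, 8730 not listed), and 13436 were tied to TAIR10.1 loci, used only for symbols and gene order. No probe set of the 18 genes is marked as shared by its identifier; 2 probe sets of several genes hold 4 of the family's loci and were left out.

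limma 3.58.1 (R 4.3.3) was fitted to all 22746 probe sets with genotype as its only term, with two-sided p-values adjusted (Benjamini-Hochberg) over the whole table and a threshold of 0.05. The fit has 2 residual and 4 prior degrees of freedom. With 2 arrays against 2, an exact permutation test of a single value cannot go below p = 0.333. The series calls the replicates biological without saying what separates them. The limma p-values rest on the spread between these arrays, with each variance drawn towards that of all probe sets. Tested on simulated data for this comparison (22746 probe sets, 100 shifted 2-fold and 100 shifted 4-fold), the fit called 88% and 100% of the shifted ones, with 13 false among 201 calls. The simulated noise was drawn from the fit's own variance model, independently for each array. These shares therefore do not measure power on the real arrays.

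The genes, lists and tests were chosen with earlier results of these data known. Genes named were AT2G42480 and its run, called genes, the 5 widest differences each way, genes with a known role, and genes of runs of 3 or more, with the others by value or range; neighbours outside the family were named after their values were seen. Alternatives were median centring, quantile normalisation, removal of the dimmest 33.3%, a variance trend with and without robust estimation, leaving out each array, a replicate block, ordinary p-values, removal of shared probe sets and averaging probe sets of a locus.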

Additional observations from a re-analysis of the deposited data

How the results depend on the processing

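With the dimmest 33.3% removed, 8 family genes were tested and 2 were called. Under the other alternatives 17 were tested. The number called was 2 under median centring, quantile normalisation, the variance trend (robust or not), removal of shared probe sets and averaging per locus. It was 0 with the replicate block (limma, 3 at an unadjusted p under 0.05) and 0 with ordinary linear-model p-values (3 unadjusted), and 0 to 2 when 1 array was left out: 0 without either wild type array (3 unadjusted in each case), 1 without cdm1 replicate 1 and 2 without cdm1 replicate 2. Over all probe sets, 303 calls became 465 with the robust trend, 0 with the replicate block (3110 unadjusted), 1 with ordinary p-values (2261 unadjusted) and 0 to 1040 with 1 array left out. Same-numbered arrays deviated with a correlation of -0.066, which does not pair them. The 1 adjacent family pair, of opposite sign in the reported fit, had the same sign in 0 to 1 cases with 1 array left out (1 when cdm1 replicate 2 or wild type replicate 1 was omitted), and without the dimmest 33.3% it gives no value, as AT3G58210 is removed. Removing the dimmest 33.3% leaves 9 family genes and moves their median difference from 0.082 to -0.036. AT2G42480, AT3G58290, ZW9 and AT3G58280 kept their direction under all alternatives run, which is no added support. The variance settings, block and filters leave the difference itself unchanged. Leaving out 1 array cannot turn its sign where the groups do not overlap. The cause of lost calls was not tested. Signal over background is unknown, which limits the 9 dim genes.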
